A study of Mus musculus with 16 samples.

Results

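The 9 myeloid C-type lectin receptor genes followed here were measured in the bone marrow of irradiated mice: Clec4a1, Clec4a2, Clec4a3, Clec4d, Clec4e, Clec4n, Clec7a, Clec12a and Clec5a. They were taken from the scanner data by gene name. They are 9 of 34650 gene names on the array, 23061 of which were measured above background. Each of the 9 had 1 probe. All 9 probes passed the filter on dim spots, and 8 of 9 were well above background on all 16 arrays; Clec12a was so on 7 KO chimera and 6 control arrays.

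The data come from 16 mice, 8 in each of 2 groups, with 1 array of total marrow RNA per mouse. KO chimeras were C57BL/6J mice, lethally irradiated at 950 rad, that were given whole marrow of donors described as a double adrenergic receptor knockout, with Adrb1 among the altered genes. The labels give a ratio of 1 to 4, donor strain to C57BL/6J, in a single retro-orbital injection. Controls were C57BL/6J mice that also carry the labels of 950 rad and of the ratio of 1 to 4. Recovery lasted 2 to 3 months in both groups. The labels name no marrow donor for the controls and no age or sex for either group. The comparison therefore does not separate receptor loss from the donor strain or from the graft, and the tissue can hold host cells that survive irradiation.

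C-type lectin receptors are surface proteins with which monocytes, neutrophils, macrophages and dendritic cells read sugars and lipids of fungi and mycobacteria and debris of dead cells. Activating members signal through an ITAM, a tyrosine motif carried in their own tail or on the adaptors Fcer1g and Tyrobp, to the kinase Syk and on to Card9, Bcl10 and Malt1. Inhibitory members carry an ITIM, which recruits phosphatases such as Ptpn6. In mice the Dectin-2 group and the Dectin-1 group form separate clusters on chromosome 6, and Clec5a lies elsewhere on that chromosome.

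Among the receptors, Clec4n, which encodes Dectin-2, was the 1 that rose in the KO chimeras. Its difference was 0.77 on the log2 scale, or 1.71-fold. The other 8 did not pass the test, and 0 fell. The rise in Clec4n rests on leaving out the spot of 1 control mouse, as described beside its values.

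Since the Dectin-2 cluster holds close paralogs, the probes that decide the values are shown first. Each probe is 60 bases long and the first 30 are given, 5′ to 3′.
Clec4n: gtcttgccctggtttctttctatgaactgc
Clec4a1: ctttggttttgctgatgtagaaccaacaaa
Clec4a2: ctctttaggaaaggaaagcaaggatagtat
Clec4a3: gccaatggttatacatatgataatactggc
Clec7a: ttaataccacccttatttccagtgtggact
The full probes of the 9 receptors shared runs of at most 13 to 15 bases with any of the other probes on the array that belong to another gene name. Probes were compared with probes and not with the transcripts of paralogs, so binding of a probe to a paralog's transcript was not tested. In mm9, the build of the files, the Clec4n probe lies at chr6:123196969-123197028 and the Clec4a1 probe at chr6:122884578-122884637. The probes of Clec4a3, at chr6:122919637-122919696, and Clec4a2, at chr6:123093890-123093949, lie between them. The Clec4d and Clec4e probes follow at chr6:123224788-123224847 and chr6:123232878-123232937. Clec12a, at chr6:129314880-129314939, and Clec7a, at chr6:129411739-129411798, lie in the Dectin-1 cluster. The Clec5a probe is at chr6:40525116-40525175. No exon annotation of that build was used here, so positions within the transcripts are not given.

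Values are log2 of the spot signal over the 75th percentile of its array, so 0 is the level of that percentile and 1 unit is a doubling. They compare mice for 1 probe and do not rank the receptors against each other. A difference is the KO chimera mean minus the control mean. Calls were made by limma at a Benjamini-Hochberg adjusted p under 0.05 over all 32689 probes kept. Of these, 23.5% were called, 11.4% higher and 12.2% lower in KO chimeras. The receptors called were 1 of 9, or 11.1%, below the share among all probes, and at an unadjusted p under 0.05 they were 3 of 9 beside 34.9% of probes. The median difference of the receptors was -0.015, beside -0.012 over all probes. In none of the 9 did the groups separate fully (0 of 9), as they did for 6.34% of all probes.

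The 75th percentile was between 127 and 545 on KO chimera arrays and between 231 and 558 on control arrays, and 0 spots were saturated. The targeted gene Adrb1 had signal in both groups. The brighter of its 2 probes differed by -0.00041 ± 0.11 (SE, adjusted p = 0.999) and the dimmer by 0.95 ± 0.30 (adjusted p = 0.0277). No source used here places these probes relative to the altered part of the allele, so the genotype is not tested by them. Marrow markers were present: mature neutrophil genes summed to 3037 to 4493 times the array percentile in KO chimeras, with controls at 3289 to 3912.

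Clec4n encodes Dectin-2, which binds mannans of fungi and signals through Fcer1g. In the 8 KO chimeras it lay between -0.40 and 0.83 with a median of -0.05. In 7 controls it lay between -1.08 and -0.23 with a median of -0.70. The 8 KO chimeras were all above the control median and 5 were above every one of these controls; the other 3 lay within the control range. The difference was 0.77 ± 0.19 (SE, 95% interval 0.37 to 1.18; adjusted p = 0.00726). Over all probes, 91.0% had an absolute difference no larger than this. The only Clec4n spot of control 8 was called non-uniform by the scanner software and was left out. With that spot the mouse had a value of 1.24, above every KO chimera, and the difference was 0.54 (adjusted p = 0.192). The authors' own values, which hold that spot, gave 0.55 (adjusted p = 0.179). On the 4 slides with a value in both groups the difference ran from 0.43 to 1.06, higher in 4 of 4. Within scan day 1 it was 0.85 (adjusted p = 0.0945) and within scan day 2 it was 0.72 (adjusted p = 0.106). Control 8 was the only control on slide 3 and was scanned on day 2. The slide and day 2 values thus also leave its spot out. The 2 KO chimeras on slide 3 averaged 0.13, below the 1.24 of that spot. In whole marrow, more cells of a type and more RNA per cell cannot be told apart.

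**Figure D1:**
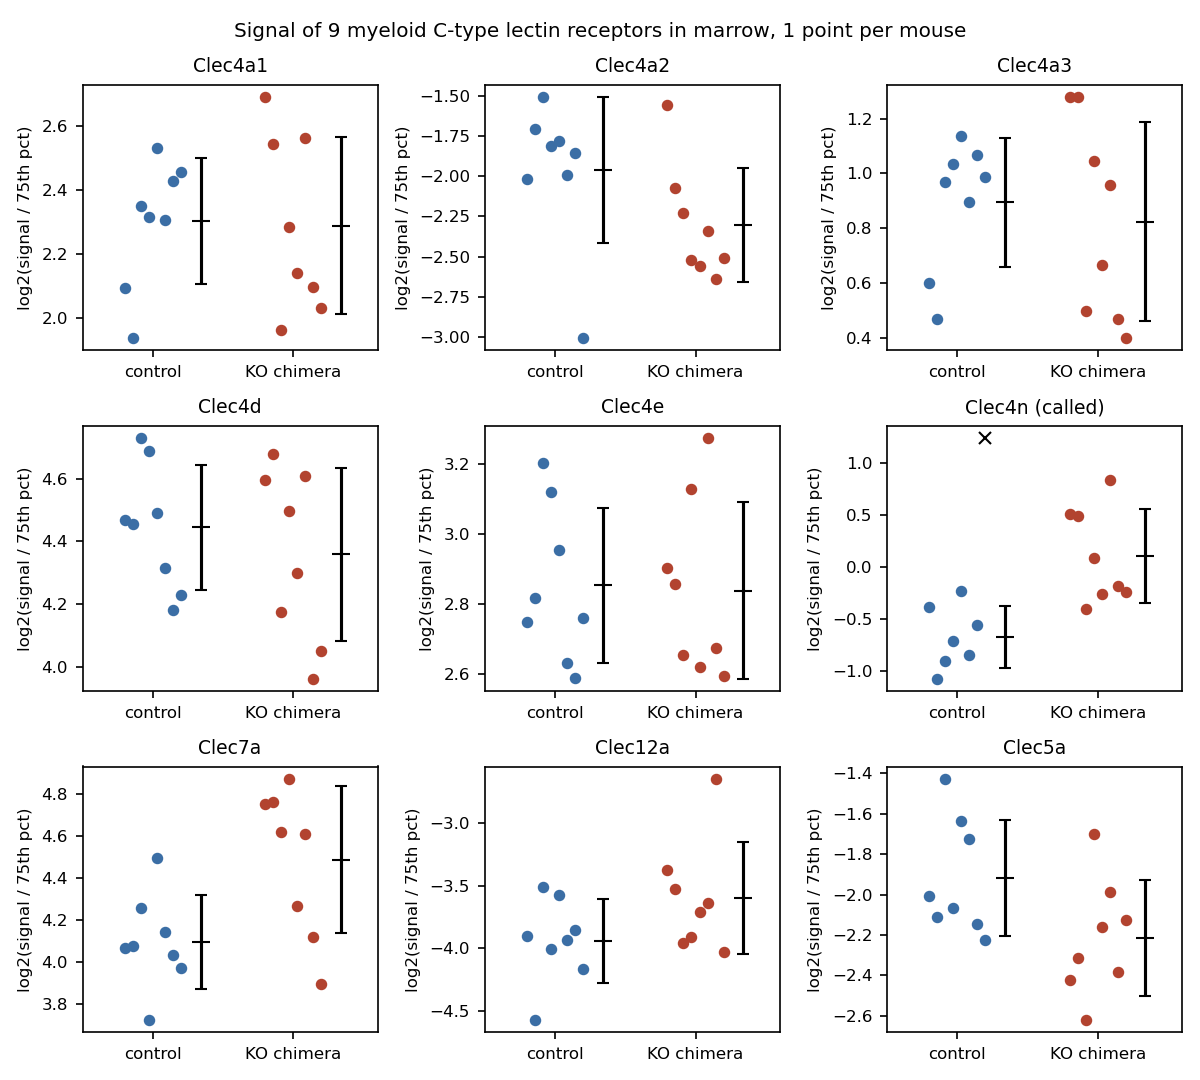
Log2 signal over the array's 75th percentile for each receptor, 1 point per mouse, controls in blue and KO chimeras in red, with the mean and SD of each group as a bar. The cross in the Clec4n panel is the left-out spot of control 8 at 1.24, above all 8 KO chimeras; without it 5 KO chimeras lie above every control.

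Clec4d and Clec4e encode MCL and Mincle, which bind the mycobacterial glycolipid trehalose dimycolate and pair with Fcer1g. Neither passed the test. Clec4d lay between 3.96 and 4.68 in KO chimeras (median 4.40) and in controls between 4.18 and 4.73 (median 4.46). The ranges overlapped, and the difference was -0.09 ± 0.12 (SE, 95% interval -0.34 to 0.17; adjusted p = 0.663). Clec4e lay between 2.59 and 3.27 in KO chimeras (median 2.77) and between 2.59 and 3.20 in controls (median 2.79). Its groups covered nearly the same range, with a difference of -0.02 ± 0.12 (SE, 95% interval -0.27 to 0.24; adjusted p = 0.948).

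Clec7a encodes Dectin-1, the receptor for fungal beta-glucans, which carries its own ITAM-like motif. It lay between 3.90 and 4.87 in KO chimeras (median 4.61) and between 3.72 and 4.49 in controls (median 4.07). Of 8 KO chimeras, 7 were above the control median and 5 were above every control. The difference of 0.39 ± 0.14 (SE, 95% interval 0.09 to 0.69) missed the threshold (adjusted p = 0.0573). Some alternatives, 7 in all, moved it past, among them normexp background correction (adjusted p = 0.0350) and scan day as a block (adjusted p = 0.0388); leaving out KO chimera 8 gave 0.48 (adjusted p = 0.0145). Array weights lowered it to 0.20 (adjusted p = 0.294). It was 0.59 within scan day 1 and 0.19 within scan day 2, and on slides it ran from -0.18 to 1.03, higher on 4 of 5.

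Clec5a encodes MDL-1, which signals through Tyrobp and Hcst. It lay between -2.62 and -1.70 in KO chimeras (median -2.24) and between -2.22 and -1.43 in controls (median -2.04). Of 8 KO chimeras, 6 were below the control median. The difference of -0.30 ± 0.14 (SE) did not pass after adjustment (adjusted p = 0.14), although 5 of 5 slides gave a value below 0. Without KO chimera 4, the highest of its group, the difference was -0.37 (adjusted p = 0.0488). It was nearer 0 with normexp, at -0.14 (adjusted p = 0.303), and with slide as a block, at -0.21 (adjusted p = 0.364).

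Clec4a2 encodes DCIR, an inhibitory receptor with an ITIM. Its KO chimera values lay between -2.64 and -1.56 (median -2.42), and its control values between -3.01 and -1.50 (median -1.84). The control median was above 7 of 8 KO chimeras, while the lowest mouse of all 16 was control 8. The difference of -0.34 ± 0.19 (SE, 95% interval -0.75 to 0.06) did not pass (adjusted p = 0.222). Without control 8 it was -0.49 (adjusted p = 0.0217), and with array weights -0.48 (adjusted p = 0.0307). It was -0.19 with normexp (adjusted p = 0.188) and -0.13 within scan day 2 (adjusted p = 0.845), and slide 3, which holds control 8, gave 0.95. Control 8 is also the mouse whose Clec4n spot was left out, and its array had the most spots called outliers, 966 against 123 on the array with the fewest.

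Clec12a encodes MICL, an ITIM receptor that recognises uric acid crystals. It was near the limit of detection, between -4.02 and -2.65 in KO chimeras (median -3.68) and between -4.57 and -3.51 in controls (median -3.92). The groups overlapped, and the difference of 0.34 ± 0.19 (SE) did not pass (adjusted p = 0.207). Slide as a block gave 0.49 (adjusted p = 0.0348), while normexp gave 0.095 (adjusted p = 0.366) and leaving out KO chimera 7 gave 0.21 (adjusted p = 0.345). Scan days disagreed, with -0.02 on day 1 and 0.70 on day 2.

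Clec4a1 and Clec4a3 are mouse relatives of Clec4a2 that lack its ITIM. Clec4a1 lay between 1.96 and 2.69 in KO chimeras (median 2.21) and between 1.94 and 2.53 in controls (median 2.33). Clec4a3 lay between 0.40 and 1.28 in KO chimeras (median 0.81) and between 0.47 and 1.13 in controls (median 0.98). Both overlapped almost fully, with differences of -0.01 ± 0.12 (adjusted p = 0.955) and -0.07 ± 0.15 (SE, adjusted p = 0.786). The 95% intervals, -0.27 to 0.24 and -0.38 to 0.24, allow changes of about that size in either direction.

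**Figure D2:**
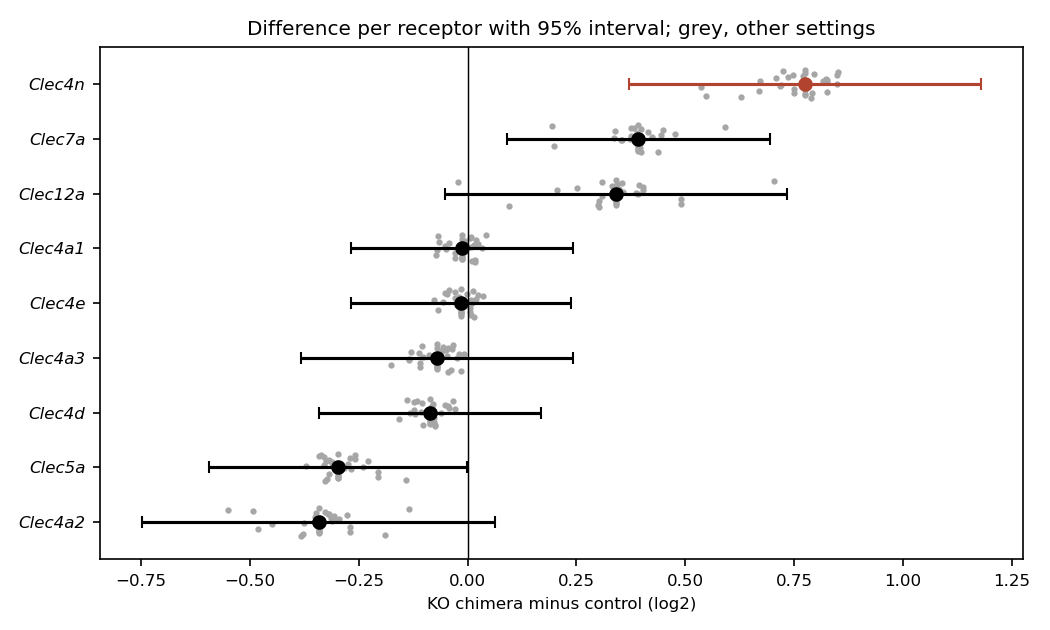
Log2 difference, KO chimera minus control, for each receptor with its 95% interval; red marks the call and grey points are the same difference under the alternatives. Clec4n lies at 0.77 (0.37 to 1.18), and its lowest alternative is 0.54 with the left-out spot kept.

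In the order of the genes along the Dectin-2 cluster, taken from RefSeq (GRCm38.p6, for order only), Clec4n was the only 1 of the 8 genes measured that passed the test. It passed only with the spot of control 8 left out. Clec4b1 and Clec4b2, relatives of the receptors that were not selected, stood at -0.16 ± 0.11 and -0.25 ± 0.13 (adjusted p = 0.304 and 0.202). Clec4a4 was not well above background on enough arrays. Clec4d and Clec4e, which follow Clec4n, stood at -0.09 and -0.02. To compare Clec4n with its neighbours inside each mouse, its log2 value was set against theirs; this contrast was chosen after the values were seen, so it is given without a test. Relative to Clec4a1, Clec4n was 0.77 higher in 8 KO chimeras than in 7 controls, and relative to Clec4a3, 0.83. The contrasts against Clec4a2, Clec4d and Clec4e were 1.27, 0.89 and 0.80. With the spot of control 8 they fell to between 0.55 and 0.88.

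The Dectin-1 cluster differed more at genes outside the 9. Clec1b, the receptor for podoplanin on platelets, stood at -2.87 ± 0.22 (SE, adjusted p = 5.46e-08), while its 2 other probes gave -2.87 and -0.76 and also passed. Clec9a, which marks the dendritic cells that take up dead cells, stood at -1.56 ± 0.16 (adjusted p = 1.19e-06). Both lie between Clec12a, at 0.34, and Clec7a, at 0.39, neither of which passed.

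**Figure D3:**
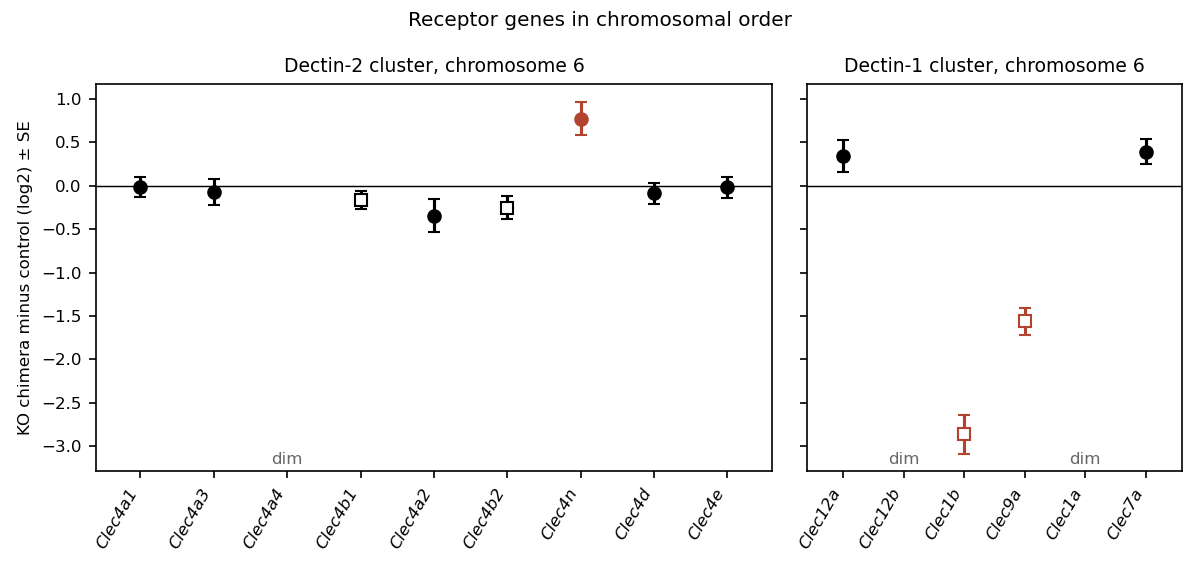
KO chimera minus control with its SE for genes in chromosomal order in the Dectin-2 and Dectin-1 clusters; filled circles are the receptors described here, open squares other genes, red a call, and dim a gene not well above background on enough arrays. Clec4n at 0.77 stands above neighbours at -0.34 to -0.01, while Clec1b at -2.87 and Clec9a at -1.56 lie between Clec12a and Clec7a.

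Across mice, receptor levels were compared after each group's mean was taken off, so that the group difference plays no part. Of 36 pairs, 35 had a positive correlation, with a median r of 0.40, and 3 passed after adjustment over the 36. Clec4a1 and Clec4a3 were closest, with Pearson's r = 0.93 over 16 mice (permutation p = 3e-05, adjusted 0.00108) and Spearman's rho = 0.85 (permutation p = 0.00035). Without the 2 mice farthest from the median r was 0.90, and it was 0.92 in KO chimeras, 0.96 in controls, 0.84 on scan day 1 and 0.98 on day 2. Of 18244 other genes, 1 had a higher r with Clec4a1. The median r of Clec4a1 with all genes was 0.04.

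Clec4d and Clec4e, whose proteins pair in the cell, correlated at r = 0.80 over 16 mice (permutation p = 0.00059, adjusted 0.0106) and rho = 0.82 (permutation p = 0.00045). It held without the 2 farthest mice, at 0.80, on both scan days, at 0.82 and 0.71, and in both groups, at 0.74 in KO chimeras and 0.92 in controls. Of 18244 other genes, 36 had a higher r with Clec4d. Clec4a1 and Clec4n correlated at r = 0.82 over 15 mice (permutation p = 0.0011, adjusted 0.0132) and rho = 0.83 (permutation p = 0.00078). Without the 2 farthest mice it was 0.79, and on the scan days 0.92 and 0.70. It was 0.94 in KO chimeras and 0.53 in controls, a difference that was not tested. Over these 15 mice, 80 of 18245 other genes had a higher r with Clec4a1. Clec4n thus varied with Clec4a1 from mouse to mouse, while Clec4n passed the test between the groups and Clec4a1 did not.

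**Figure D4:**
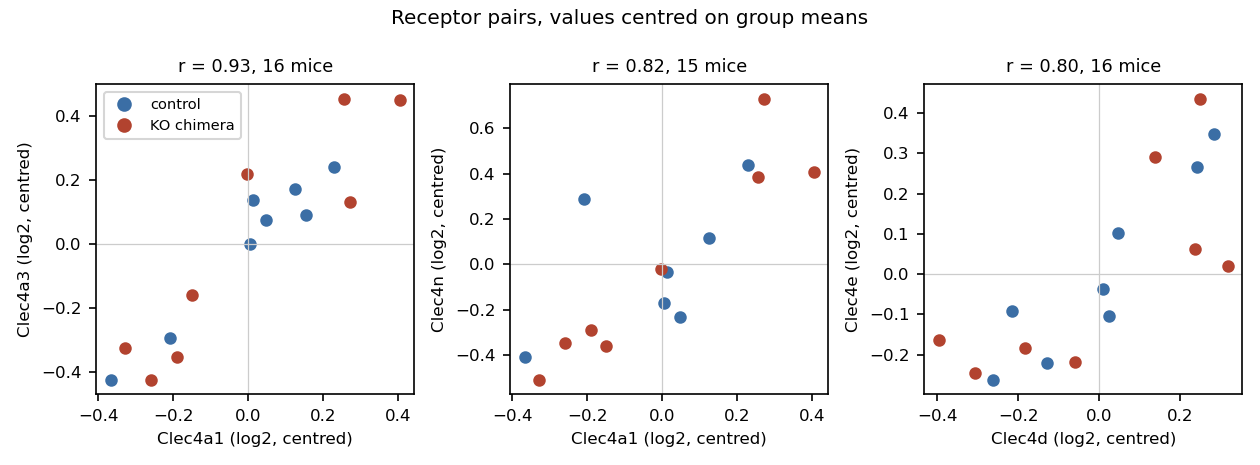
Log2 values of 3 receptor pairs after each group's mean was taken off, 1 point per mouse, controls in blue and KO chimeras in red. The points rise together in all 3 panels, with r = 0.93 for Clec4a1 and Clec4a3, 0.82 for Clec4a1 and Clec4n over 15 mice, and 0.80 for Clec4d and Clec4e.

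The genes most like each receptor by the same centred r, among those well above background on every array, are given as a description. For Clec4a1 they were Rassf4 (0.95), Clec4a3 (0.93) and Plod3 (0.93). Clec4a3 shared Plod3 (0.95) and was followed by Cmtm3 (0.93). Clec4n had Gng11 (0.89) and Ms4a7 (0.89). Clec4d had the cytokine gene Il1b (0.89). Clec4e had Abracl (0.88), Fam63a (0.86) and Msmo1 (0.85). Clec7a had Fyb (0.92) and Gp49a (0.92). Clec5a had the progenitor gene Ms4a3 (0.93) and Arl8a (0.90). Clec4a2 had 2210016F16Rik (0.91) and Arid4a (0.91). For Clec12a, close to background, the highest r was 0.87, for a probe that carries only an accession. Its first named gene was Wdpcp (0.79, with a Spearman's rho of 0.51). Elsewhere in this list, probes that carry only an accession, a position or a probe name are left out. These r share the 16 arrays and their scaling.

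Since Clec4a1 and Clec4a3 varied together, the 250 bases before their starts were searched in RefSeq's promoter table (GRCm38.p6), which held 8 of the 9 receptors and none for Clec4n. They share a run of 17 bases, in capitals here, each shown with its flanks on the plus strand.
Clec4a1 at chr6:122921620-122921649: ctaatgCCTGGTTCCTCTTTTTCctttcct
Clec4a3 at chr6:122952583-122952612: taatgcCCTGGTTCCTCTTTTTCattcctt
The run starts 222 bases before the start of Clec4a1 and 55 before the second of 2 starts listed for Clec4a3. Of 27025 genes, each read at its first listed start, 1 held the run, and across all listed starts these were the only 2 genes. The run was picked because these 2 windows share it, so the count only describes it. Whether the run bears on the correlation of Clec4a1 and Clec4a3 was not tested. Clec4d and Clec4e, which also varied together, are shown in full with motif matches in capitals.
Clec4d at chr6:123261857-123262106, plus strand: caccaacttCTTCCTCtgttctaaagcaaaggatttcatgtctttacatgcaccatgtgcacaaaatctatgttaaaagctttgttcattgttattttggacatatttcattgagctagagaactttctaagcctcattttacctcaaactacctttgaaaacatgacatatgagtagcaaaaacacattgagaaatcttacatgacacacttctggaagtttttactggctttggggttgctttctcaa
Clec4e at chr6:123289872-123290121, minus strand: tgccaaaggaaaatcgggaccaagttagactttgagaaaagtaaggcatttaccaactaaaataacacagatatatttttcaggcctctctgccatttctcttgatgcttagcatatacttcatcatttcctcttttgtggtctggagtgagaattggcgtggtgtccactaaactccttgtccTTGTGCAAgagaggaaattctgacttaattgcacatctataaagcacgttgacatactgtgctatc
The letters searched on both strands were GAGGAAG for PU.1 or ETS factors, TTGCNNAA for C/EBP, for NF-kB GGG and CC around TT with any 2 bases before TT and any 1 after, TGACGTCA for the cAMP response element and TGACG for its core, which overlaps it. The PU.1 or ETS letters were found before Clec4d, Clec4a1, Clec12a and Clec5a, and are held by 10.4% of all 27025 promoters of this length. The C/EBP letters were found before Clec4e and Clec12a, beside 9.55% of promoters. The other 3 were in none of the receptor windows and are in 4.0%, 1.62% and 17.9% of promoters. A match describes letters and not a bound site.

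The partners through which the receptors signal were read from the brightest probe of each gene. Of 22 genes for activating adaptors and signalling, all measured, 0 rose, 2 fell and 20 did not pass by that probe, with a median difference of 0.0093. Over all 23061 genes, each read from its brightest probe, 10.3% rose and 12.1% fell, with a median of -0.019. The adaptor genes Fcer1g and Tyrobp stood at 0.02 ± 0.09 and 0.13 ± 0.11, Syk at -0.11 ± 0.11 and Card9 at 0.15 ± 0.18 (SE, adjusted p from 0.459 to 0.924). The 2 that fell were Map3k14, the kinase of the alternative NF-kB route, at -0.43 ± 0.10 (adjusted p = 0.00578), and Malt1, the protease of the Card9 complex, at -0.33 ± 0.10 (adjusted p = 0.0172). A second Map3k14 probe gave -0.21 and did not pass. Dimmer probes passed for 3 genes whose brightest probe did not: Nfatc1 at -1.05, Prkcd at 0.31, and Traf6 at 1.06 on one and -0.32 on another. These 3 were named after their values were seen.

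Of 6 inhibitory signalling genes, 0 rose, 2 fell and 4 did not pass (median -0.13). Cblb, a ubiquitin ligase that limits Dectin signalling, stood at -0.46 ± 0.10 (adjusted p = 0.00234) and the phosphatase gene Ubash3b at -0.39 ± 0.10 (adjusted p = 0.00932). Second probes gave -0.10 for Cblb and 0.21 for Ubash3b and did not pass. The phosphatase gene Ptpn6 stood at -0.04 ± 0.10 (adjusted p = 0.82).

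Genes that Syk and Card9 signalling is known to induce were measured for 12 of 16. Of these 7 rose, 0 fell and 5 did not pass, with a median of 0.68, beside 10.3% of all genes that rose. The neutrophil attractant gene Cxcl1 stood at 4.19 ± 0.44, though its probe was well above background on only 2 control arrays, so the size is poorly set. It is counted among the 7 that rose but passed the filter only through the KO chimera arrays, so no p is given. Il1rn, which encodes the interleukin 1 receptor antagonist, rose by 1.02 ± 0.13 (adjusted p = 2.47e-05). The inflammasome gene Nlrp3 rose by 1.08 ± 0.17 (adjusted p = 2.10e-04). Many other receptors induce these genes too.

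Among 5 genes for endogenous ligands 4 were measured; 1 rose, 2 fell and 1 did not pass (median -0.053). Lgals9, a galectin that binds Dectin-1, stood at -0.42 ± 0.09 (adjusted p = 0.00334). Sap130, which Mincle senses when released from dying cells, stood at -0.24 ± 0.07 (adjusted p = 0.0199). Anxa1 rose by 0.42 ± 0.12 (adjusted p = 0.0206).

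Of 28 other C-type lectin receptor genes 19 were measured: 3 rose, 4 fell and 12 did not pass, with a median of -0.16. Colec12, a scavenger receptor of endothelium and stroma, was higher in KO chimeras by at least 5.88-fold, and 0 control arrays held it well above background. It is counted among the 3 that rose but passed the filter only through the KO chimera arrays, so no p is given. The bound takes the lowest well-detected signal of each control array as its level. Clec1b and Clec9a, given with their cluster, were the other 2 with the smallest p.

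**Figure D5:**
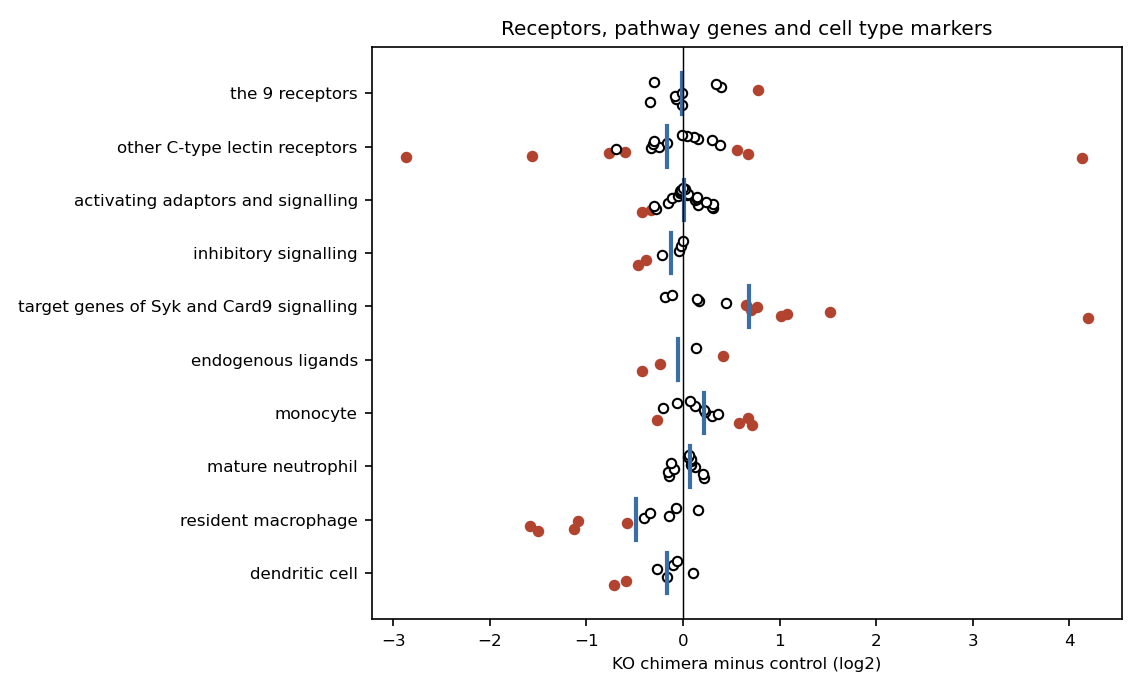
Log2 difference, KO chimera minus control, for each measured gene of the receptors, their pathway lists and marker lists of myeloid cells; filled red points passed, open points did not, and the blue bar is the median. The receptors centre on -0.015, the Syk and Card9 target genes on 0.68 and the resident macrophage markers on -0.49; the point near 4 among other receptors is Colec12, dim in all controls, whose size is a fitted value only.

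Markers of cell types that carry these receptors were counted beside the 22.3% of all genes called in either direction. Monocyte markers were called at 33.3%, dendritic cell markers at 28.6%, resident macrophage markers in 5 of 10 and mature neutrophil markers in 0 of 12. Of 12 monocyte markers measured of 13, 3 rose, 1 fell and 8 did not pass (median 0.22). Their summed level was 302 to 545 times the array percentile in KO chimeras, with controls at 282 to 388. Klf4, needed for monocyte formation, rose by 0.71 ± 0.15 (adjusted p = 0.00224), and Nr4a1, a regulator of patrolling monocytes that stimulation also induces, by 0.58 ± 0.15 (adjusted p = 0.0079). Of 12 mature neutrophil markers 0 passed in limma by the brightest probe and 1 had an unadjusted p under 0.05 (median 0.071). A second Camp probe gave 0.47 and passed. Among monocyte markers that did not pass by the brightest probe, Csf1r and Cx3cr1 each had 1 other probe that passed. Csf1r stood at 0.22 by the brightest probe and at 0.27 and 0.85 by the others. Cx3cr1 stood at -0.21 by the brightest and at -0.25 and 0.84 by the others, so its probes differ in sign. Spn, the 1 that fell, stood at -0.26, while its second probe gave 0.02 and did not pass. The second probes of S100a4 and F13a1 did not pass. These genes were named after their values were seen.

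Of 10 resident macrophage markers measured of 13, 0 rose, 5 fell and 5 did not pass (median -0.49), and Cd163, Mertk and Timd4 were not measured. Vcam1, 1 of the 5 that fell, stood at -0.58, while its second probe gave 0.24 and did not pass. The sum of the markers was 13.4 to 19.2 in KO chimeras, with controls at 17.6 to 26.0. Cd5l, a secreted macrophage protein, stood at -1.50 ± 0.21 (adjusted p = 4.88e-05) and the receptor kinase gene Axl at -1.12 ± 0.21 (adjusted p = 7.23e-04). Of 7 dendritic cell markers measured of 8, 0 rose, 2 fell and 5 did not pass (median -0.17), with sums of 165 to 296 and 188 to 220. These sums are mostly the signal of Siglech, so they say little about the other markers. Siglech had log2 medians of 7.63 in KO chimeras and 7.53 in controls. The next brightest, Bst2, had 2.11 and 2.29. Siglech stood at 0.10 ± 0.11 by that probe and at -0.40 and -0.25 by its others, and 0 of them passed. Ccr9 stood at -0.71 ± 0.15 (adjusted p = 0.00229) and Batf3 at -0.59 ± 0.14 (adjusted p = 0.00703). The part of these cell types in the rise of Clec4n was not tested.

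Other marker lists were counted in the same way. Of 8 megakaryocyte markers 0 rose and 5 fell (median -0.94), and their sum was 19.5 to 48.4 in KO chimeras, with controls at 33.6 to 68.6. Of 9 B lineage markers 2 rose and 0 fell, and of 7 T cell markers 1 rose and 2 fell. Of 7 NK cell markers 1 rose and 1 fell by the brightest probe. The 1 that fell, Klrk1, was well above background on 2 KO chimera and 8 control arrays. It passed the filter only through the control arrays. For Klrb1c the brightest probe gave -0.04, and a second gave -2.47 and passed. Of 5 primary granule markers 1 rose by the brightest probe. A second Mpo probe gave 1.08 and passed, while its brightest gave 0.22 and did not. Klrk1, Klrb1c and Mpo were named after their values were seen. Of 9 erythroid markers 0 passed, also at an unadjusted p under 0.05. Of 7 markers of other tissues 4 were measured and 1 fell.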

How the data were processed

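Marrow RNA of 16 mice was hybridised to 1-colour Agilent arrays, 1 per mouse; group and number come from the sample titles. The deposited scanner files give linear spot intensity after background subtraction, per the file headers (Feature Extraction 10.1.1.1; 10.7 per the submitters' processing notes). The authors' deposited value table holds log2 values that matched the scanner signal at r = 0.991 or more; its medians were 4.98 to 5.00, and no source used here gives its centring.

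For each array, log2 of intensity over the 75th percentile of its non-control spots was taken. Spots flagged as non-uniform or population outliers were left out. A probe was kept, 32689 of 55681, when 6 or more of a group's 8 arrays held it well above background. The test was limma 3.58.1 (R 4.3.3; lmFit, eBayes, two-sided, Benjamini-Hochberg, adjusted p under 0.05) without covariates. Lists were read from each gene's brightest probe, and correlations were tested with 100000 permutations within groups. The fit was tested on simulated data. Members and lists were chosen with earlier results of these data known. Pathway genes named are up to 3 changed genes per list by smallest adjusted p, with Fcer1g, Tyrobp, Syk and Card9 always; for 4 myeloid marker lists up to 2, and for each receptor the 3 most similar genes; some genes that this rule or the design names are not reported here. Alternatives were other normalization, background correction, filters, blocks (slide, scan day, replicate number), array weights, a variance trend, flagged spots kept, thresholds and leaving out each mouse. Fits within scan days and Clec4n set against its neighbours were added after seeing the data. The 16 arrays came from 6 slides, 5 with both groups, and 2 scan days with 4 mice per group each. Precision is limited by the number of mice.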

Additional observations from a re-analysis of the deposited data

Results flagged for a closer look

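In a group of 8 mice, a mouse was singled out where its gap to the nearest other exceeded 0.526 of the group's range. Chance does this in about 1 in 20 groups. With 9 receptors in each of 2 groups of mice, such a mouse can therefore be singled out by chance. For Clec4a2 the lowest control was control 8, at -3.01 with the next at -2.02 (gap 0.658 of the range). For Clec12a the highest KO chimera was KO chimera 7, at -2.65 with the next at -3.38 (gap 0.53 of the range). Neither gene passed the test with all mice.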

How the results depend on the processing

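All probes called numbered 7696, receptors called 1 and list genes called 46. Within scan day 1 these were 2453, 0 and 16, within scan day 2 3459, 0 and 26, and an adjusted p under 0.01 left 4430 probes. Receptors called were 0 with the authors' values and with flagged spots kept. They were 2 with normexp correction, probes detected on all 16 arrays, slide or scan day as a block, array weights and a variance trend. Keeping only slides with both groups, with slide as a block, gave the same 6999 probes and 2 receptors as slide as a block. It is not a separate result, since slide 6, which it drops, holds only control 3. Leaving out each mouse gave 6604 to 7947 probes, 1 to 2 receptors and 43 to 47 list genes. The receptors called were 2 without KO chimera 4, 7 or 8 or control 5 or 8. In these fits Clec4n lay between 0.67 and 0.85 (adjusted p 0.00472 to 0.0183). All of them lack the flagged Clec4n spot of control 8, so they cannot show how the call depends on it. With flagged spots kept and all mice in, Clec4n was 0.54 (adjusted p = 0.192). The replicate numbers do not pair the mice, since same-numbered deviations correlated at -0.19 to 0.19 and 6 of 8 pairs at 0.1 or less; 1 mouse correlated best with its own number. With the replicate number as a block 7012 probes, 1 receptor and 42 list genes were called, and Clec4n was 0.82 (adjusted p = 0.0221). Directions near 0 turned for Clec4a1 with quantile normalization (0.017), normexp (0.010), the authors' values (0.017) and scan day 2 (0.041), and over -0.071 to 0.033 without single mice. For Clec4e they turned with quantile normalization (0.014), the authors' values (0.0085), slide as a block, also on slides holding both groups (0.0054), and scan day 1 (0.012), and over -0.078 to 0.035 without single mice. Clec12a turned on scan day 1 (-0.021). Signal near background limits Clec12a.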
